A study of Mus musculus with 11 samples.

Results

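The genes described here encode chemokines, interleukins and their receptors. All rows of the deposited expression table whose symbol begins with Ccl, Cxcl, Ccr, Cxcr or Il and a number were taken. Only symbols holding -ps, a mark of pseudogenes, were left out. This gave 85 of the 18269 genes in the table: 28 chemokine ligands (20 CC and 8 CXC), 10 chemokine receptors (6 CC and 4 CXC) and 47 genes with an interleukin name. Cxcl11, a polymorphic pseudogene in the GENCODE M21 annotation, was kept among the CXC ligands. A few of the 47 are neither an interleukin nor its receptor, such as Il4i1, an amino acid oxidase named for its induction by interleukin 4, and Il18bp, a soluble protein that binds interleukin 18.

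RNA was measured by sequencing in 11 libraries of the tibialis anterior, the muscle at the front of the shin. All 11 came from C57BL/6 mice of 21 to 24 months, an inbred strain at an advanced age, in a muscle injury model. No altered allele is named for any group. The 3 groups differ in what was injected: saline (4 libraries, numbered 2, 3, 4 and 6), young serum (4 libraries, 1 to 4), and young serum from which extracellular vesicles (EVs, small membrane-bound particles released by cells) had been removed (3 libraries, 2 to 4, called EV-depleted serum below). The labels do not say how the muscle was injured, how long after injury it was taken, or that each library is a separate animal. The p-values therefore measure the spread between these libraries, which may be technical. Values are counts per 1e+06 counts of the library (CPM), which do not correct for transcript length. In bulk tissue, fewer cells of a type and less RNA per cell cannot be told apart.

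Chemokines are small secreted proteins that direct the movement of leukocytes through G protein-coupled receptors, and they are grouped as CC or CXC by the spacing of conserved cysteines. Interleukins are cytokines that act mostly through paired receptor chains: several families share a chain, such as Il2rg (the common gamma chain), Il6st (gp130) or Il1rap, and signal through JAK and STAT proteins or, for the IL-1 family, through MyD88 and NF-kappaB. In injured muscle, CCR2 and its ligands are known for recruiting monocytes, and CXCL12 for guiding progenitor cells through CXCR4. CCL19, CCL21 and CXCL13 are the chemokines that organise lymphoid tissue, through CCR7 and CXCR5.

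Of the 34 genes set out by name, 32 are rows of the table, and Cxcl5 and Il1b are not analysed here. Many of the CC ligands lie side by side on chromosome 11 (coordinates of GENCODE M21 on mm10, the build that the submitters' processing notes name). Ccl2 (82035571 to 82037453), Ccl7 (82045712 to 82047525), Ccl11 (82057823 to 82062955), Ccl12 (82101845 to 82103400) and Ccl8 (82115185 to 82116799) are on the plus strand within 81.2 kb. Ccl5 (83525778 to 83530518), Ccl9 (83572919 to 83578636) and Ccl6 (83587882 to 83593087), all on the minus strand, and Ccl4 (83662584 to 83664683, plus strand) form a second group of 138.9 kb that starts 1409 kb further along. Cxcl14 is on chromosome 13 (56288643 to 56296551, minus strand), Cxcl16 on chromosome 11 (70453983 to 70459984, minus strand) and Cxcl10 on chromosome 5 (92346638 to 92348889, minus strand).

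The 250 bases before the RefSeq start of 5 chemokine genes are printed below (RefSeq on GRCm38.p6, 5′ to 3′ on the strand of the gene). Ccl8, Ccl6 and Ccl9 are shown because they were among the chemokines with the largest differences from saline, and Ccl6 and Ccl9 are neighbours on chromosome 11. Cxcl14 is shown because it had the smallest p-value after EV-depleted serum, and Cxcl10 because it is a textbook interferon- and NF-kappaB-responsive chemokine whose groups overlapped here. Capitals mark matches to 3 motifs, searched on both strands: the 10-base NF-kappaB consensus (kappaB), the interferon element GAAA repeated after any 2 bases (ISRE) and the STAT element TTCNNNGAA (GAS). Matches to different motifs may overlap.
Ccl8 (chr11:82114935-82115184, plus strand): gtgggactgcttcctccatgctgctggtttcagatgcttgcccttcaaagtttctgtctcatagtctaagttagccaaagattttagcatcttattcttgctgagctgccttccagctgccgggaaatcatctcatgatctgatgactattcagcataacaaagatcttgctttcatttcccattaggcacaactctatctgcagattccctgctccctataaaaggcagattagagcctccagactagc
Ccl6 (chr11:83593088-83593337, minus strand): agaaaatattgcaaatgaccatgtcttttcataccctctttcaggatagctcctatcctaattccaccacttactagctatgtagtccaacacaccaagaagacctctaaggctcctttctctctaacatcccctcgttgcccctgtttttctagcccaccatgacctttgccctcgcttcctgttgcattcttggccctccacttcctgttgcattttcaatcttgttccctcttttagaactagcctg
Ccl9 (chr11:83578637-83578886, minus strand): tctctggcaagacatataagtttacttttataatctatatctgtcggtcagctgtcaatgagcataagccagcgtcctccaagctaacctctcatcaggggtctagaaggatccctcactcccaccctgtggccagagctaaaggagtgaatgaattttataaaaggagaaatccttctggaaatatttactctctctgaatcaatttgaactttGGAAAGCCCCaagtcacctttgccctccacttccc
Cxcl14 (chr13:56296552-56296801, minus strand): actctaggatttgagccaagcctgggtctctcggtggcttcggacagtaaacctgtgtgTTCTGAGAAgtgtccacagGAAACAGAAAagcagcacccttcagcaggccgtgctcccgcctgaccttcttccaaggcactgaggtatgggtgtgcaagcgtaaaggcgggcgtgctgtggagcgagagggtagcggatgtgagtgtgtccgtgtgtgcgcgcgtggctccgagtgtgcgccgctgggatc
Cxcl10 (chr5:92348890-92349139, minus strand): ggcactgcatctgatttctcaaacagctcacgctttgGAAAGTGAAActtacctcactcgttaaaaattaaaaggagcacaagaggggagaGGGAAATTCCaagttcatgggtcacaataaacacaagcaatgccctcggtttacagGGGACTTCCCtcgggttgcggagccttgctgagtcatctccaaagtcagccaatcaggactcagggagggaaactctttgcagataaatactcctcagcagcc

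Cxcl10 carried 2 kappaB matches, starting 159 and 103 bases before the start, and an ISRE match starting 213 bases before it. Ccl9 carried 1 kappaB match, starting 35 bases before its start. Cxcl14 carried a GAS match starting 191 bases before its start and an ISRE match starting 172 bases before it, and the windows of Ccl6 and Ccl8 held none of these letters. Of the 62 genes with an entry in the promoter table, 5 held the kappaB letters (8.06%, against 3.75% of all 27025 promoters), 3 the ISRE letters (4.84% against 3.04%) and 4 the GAS letters (6.45% against 7.18%). These matches are a description of the letters only.

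Most of these genes were weakly expressed. Of the 85, 46 reached 1 CPM in at least 3 libraries and were tested, and 39 did not. None of the 46 met this filter through 1 group alone. At depths of 36.4 to 42.3 times 1e+06 reads, 1 read was worth 0.0237 to 0.0275 CPM, and 67 of the 85 genes were seen in all 11 libraries. By role, the tested genes were 11 of 20 CC ligands, 5 of 8 CXC ligands, 1 of 6 CC receptors (Ccr2), 1 of 4 CXC receptors (Cxcr4), 5 of 9 receptors of the common gamma chain group, 5 of 6 IL-17 family genes and 5 of 9 IL-1 receptors and antagonists.

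Only 5 genes averaged 10 CPM or more, and the leaders were a shared receptor chain and homeostatic chemokines. Il6st, the gp130 chain through which IL-6, IL-11 and related cytokines signal, ranged from 91.2 to 162 CPM. Cxcl12 ranged from 52.0 to 92.3 CPM, Il11ra1 (the IL-11 receptor) from 37.4 to 91.5 CPM, Cxcl14 from 32.1 to 81.4 CPM and Ccl11 (eotaxin, an eosinophil attractant) from 6.53 to 15.9 CPM. Levels were also divided by exon length, joined over all annotated transcripts of a gene. This allows only a rough comparison of genes, because the transcripts in use may be shorter (the joined length was 1.83 kb for Cxcl14 and 8.18 kb for Cxcl12). By this measure Cxcl14 was highest, with a mean of 27.9 CPM per kb over the 11 libraries. Il11ra1 followed at 12.5, Il6st at 12.1, Ccl21a at 10.5, Ccl11 at 9.69 and Cxcl12 at 9.27 CPM per kb. The last 5 lay close together: Ccl21a alone ranged from 3.07 to 29.3 CPM per kb. In contrast, Il6 itself amounted to 0 to 4 reads in every library, and Cxcl1, a neutrophil attractant, to 0 to 10 reads.

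Saline 4 stood apart, and saline 6 did so for some genes, and both bear on every comparison with saline. Saline 4 was the highest of the 11 libraries for 51 of the 85 genes (60.0%, against 35.0% of all genes in the table). It exceeded 5 times the median of the other 10 libraries for 27 of the 85 (31.8%, against 8.13% of all genes). Saline 6 was the highest library for 10 of the 85 (11.8%, against 14.3% of all genes). Of the 12 genes that passed 1 CPM in only 1 or 2 libraries, 11 did so only in saline 4 or saline 6. The share over all genes is not given for this last count, so it is not read as particular to the members. The genes named next, apart from Ccl5, Cxcl9, Cxcl13, Ccl21a and Il2rg, were chosen after their values were seen.

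**Figure D1:**
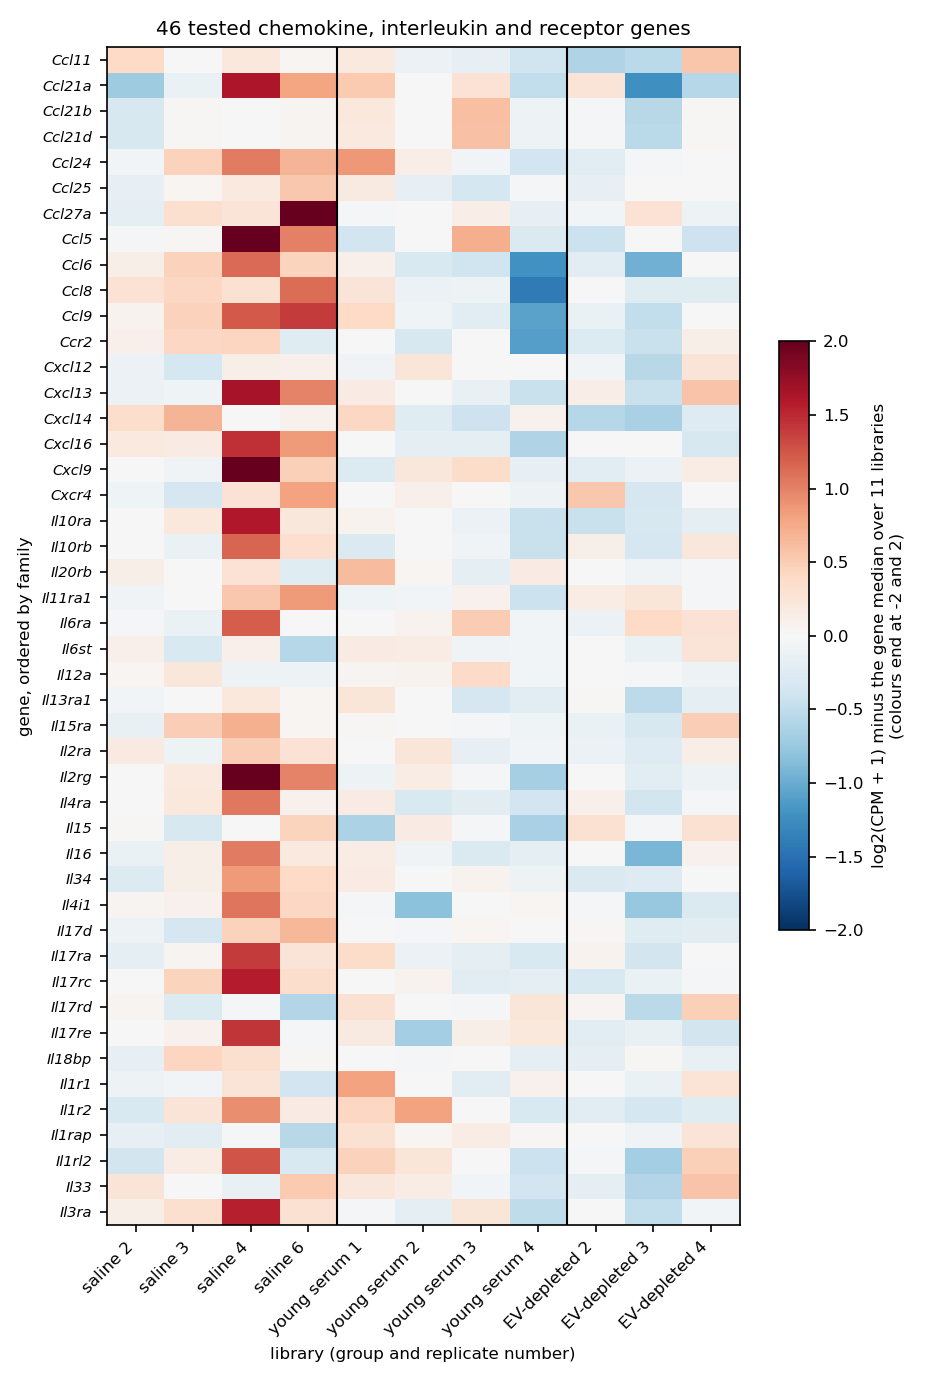
Level of each of the 46 tested genes (rows) in each of the 11 libraries (columns), as log2(CPM + 1) minus the gene's median over the libraries. Saline 4 holds the highest value of 24 of the 46 genes (52.2%, against 33.8% of all genes tested), saline 6 of 8 (17.4%, against 14.5%) and EV-depleted 4 of 5 (10.9%, against 25.8%).

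Chemokines and receptors of lymphoid tissue and lymphocytes gave the widest contrasts. Ccl19, a CCR7 ligand, stood at 29.8 CPM in saline 4 and 4.03 CPM in saline 6, and at 0.249 to 0.770 CPM in the other 9 libraries. Its receptor Ccr7 stood at 2.70 CPM in saline 4 and 0.905 CPM in saline 6, against 0.0276 to 0.208 CPM elsewhere. Ccl21a, the other CCR7 ligand, followed less closely, at 25.4 and 13.8 CPM in saline 4 and 6 and 2.67 to 11.3 CPM elsewhere. The pair that draws B cells into follicles showed the same 2 libraries on top: Cxcl13 stood at 4.44 and 2.47 CPM against 0.281 to 1.58 CPM elsewhere, and its receptor Cxcr5 at 2.55 and 0.980 CPM against 0.0245 to 0.183 CPM.

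Receptors of lymphocyte cytokines and chemokines of T cells ran the same way. Il2rg, the common gamma chain, stood at 13.0 CPM in saline 4 and 3.93 CPM in saline 6, and at 0.562 to 1.83 CPM in the other 9. Il21r, the IL-21 receptor, stood at 7.97 and 1.41 CPM against 0.0519 to 0.342 CPM, and Il2rb, a chain of the IL-2 and IL-15 receptors, at 5.23 and 1.06 CPM against values up to 0.495 CPM. Ccl5, a T cell and macrophage chemokine, stood at 10.3 CPM in saline 4 and 1.89 CPM in saline 6, and at 0.0730 to 1.38 CPM elsewhere. Cxcl9, an interferon-gamma-induced CXCR3 ligand, stood at 5.77 and 1.21 CPM against 0.306 to 1.04 CPM.

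Markers of some other cell types were high in saline 4, and some of these in saline 6 too. Mast cell markers summed to 63.7 CPM in saline 4, 35.8 CPM in saline 6 and 5.73 to 27.8 CPM in the other 9 libraries. Lymphatic endothelial markers did not follow, at 19.9, 17.0 and 10.8 to 24.1 CPM in the same order. Endothelial markers, at 526, 387 and 334 to 451 CPM, were high in saline 4 only. Red blood cell markers, at 468, 1488 and 89.1 to 328 CPM, were highest in saline 6. Of 10 T and NK cell markers, 9 are in the table and all 9 were highest in saline 4. Their summed level was 39.8 CPM there, 13.8 CPM in saline 6, 2.20 and 2.44 CPM in saline 3 and 2, 1.41 to 2.97 CPM after young serum and 1.30 to 2.65 CPM after EV-depleted serum. The 10 B and plasma cell markers, all in the table, summed to 356, 376, 638 and 254 CPM in saline 2, 3, 4 and 6, 141 to 188 CPM after young serum and 124 to 148 CPM after EV-depleted serum. Of these, 8 were highest in saline 4, Ighm in saline 3 and Mzb1 in saline 6. Ighm, the IgM heavy chain, made up most of the sums of saline 2 and 3, at 350.1 and 363 CPM. The 8 adipocyte markers summed to 6059 CPM in saline 4, 558 CPM in saline 6 and 117 to 344 CPM in the other 9 libraries. Of the 10 neutrophil markers, 6 are in the table, summing to 0.946 to 3.79 CPM, and Mpo was at 0 in all 11 libraries. The 10 muscle fibre markers summed to 142373 to 187860 CPM, so the labelled tissue was found in each library. The part of these cells in the results below was not tested.

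**Figure D2:**
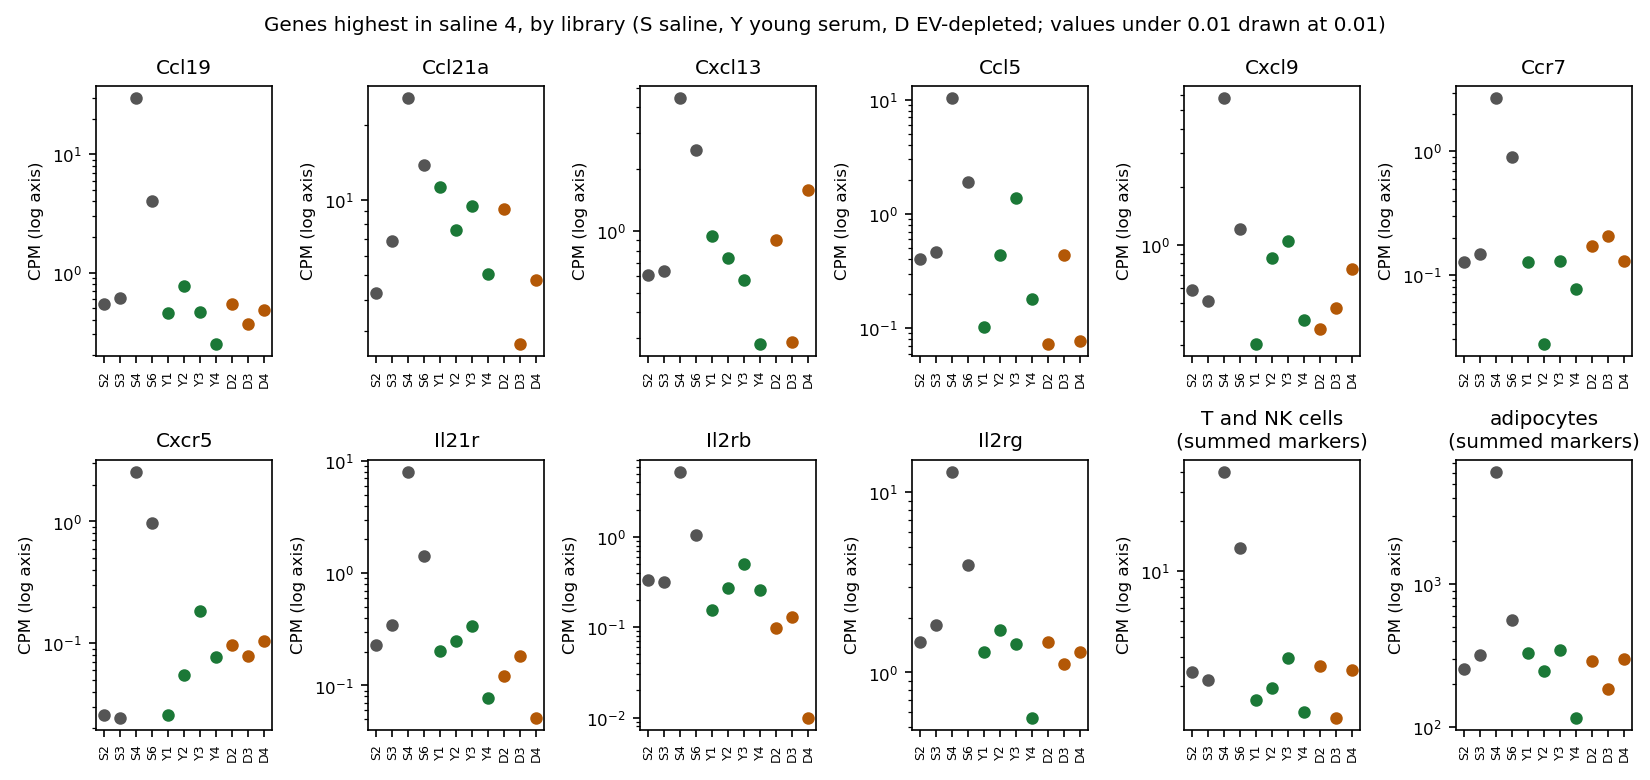
CPM on log axes of 10 genes that were highest in saline 4, and the summed CPM of the T and NK cell and adipocyte markers, 1 point per library (S saline, Y young serum, D EV-depleted serum). Saline 4 is the top point in each panel, at 29.8 CPM for Ccl19 and 39.8 CPM for the T and NK cell markers.

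The first question of the design is whether young serum alters expression in aged muscle. None of the 46 tested genes changed after young serum by limma with Benjamini-Hochberg adjustment over the 13187 genes tested, and the smallest adjusted p among them was 0.180. No gene of the 13187 passed either (0.0%), the smallest adjusted p being 0.0767. Most members nevertheless had lower estimates after young serum: 37 of 46 had a negative log2 difference, against 52.5% of all genes tested. Their median difference was -0.31 on the log2(CPM + 1) scale, against -0.02 over all genes. At an unadjusted p under 0.05, 10 were lower (21.7%, against 11.4% of all genes) and 1 higher, Il1rap (2.17%, against 10.5%).

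Counting over all 85 genes, 7 lay lower in every young serum library than in any saline library (8.24%, against 5.24% of all genes in the table). These were Ccl2, Ccl6, Ccl7, Ccl8, Cxcl16, Il18 and Il4i1. Il1rap alone lay higher in every young serum library (1.18%, against 4.9%). Among the 46 tested genes alone, 4 lay lower (8.70%, against 6.08% of genes tested) and 1 higher (2.17%, against 6.09%). Leaving out saline 4 and 6 can only add to these counts, and it gave 8 of the 85 lower (9.41%, against 8.15% of all genes in the table) and 6 higher (7.06%, against 13.9%). Without those 2 libraries 28 of the 46 had a negative difference (60.9%, against 42.1% of all genes tested), with a median of -0.06 against 0.05 over all genes. Then 1 gene was lower at an unadjusted p under 0.05 (2.17%, against 3.47%). Libraries were also weighted by their spread in limma (array weights), which gave saline 3 a weight of 3.32 and saline 4 one of 0.208. With these weights 7 members were called (Ccl6, Ccr2, Cxcl14, Cxcl16, Il15ra and Il17rc lower and Il1rap higher), which is 15.2% of the 46, against 26.1% of all genes tested.

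For EV-depleted serum against saline, again 0 of the 46 passed the limma test (0.0% of all genes did), with a smallest adjusted p of 0.355 for Cxcl14. A negative log2 difference was found for 41 of 46, against 50.4% of all genes tested, and the median was -0.37 against -0.00. Lower at an unadjusted p under 0.05 were 8 (17.4%, against 5.59%), and 0 were higher (against 6.49%). Of the 85, 16 lay lower in all 3 EV-depleted libraries than in any saline library (18.8%, against 4.15% of all genes in the table), and 0 lay higher (against 2.91%). Among the 46 tested genes, 10 lay lower (21.7%, against 4.03%) and 0 higher (against 3.39%). The 16 were 6 CC ligands (Ccl2, Ccl6, Ccl7, Ccl8, Ccl9 and Ccl12), 2 CXC ligands (Cxcl14 and Cxcl16), 6 receptors (Il10ra, Il17rc, Il17re, Il21r, Il2rb and Il3ra), Il18 and Il4i1. Leaving out saline 4 and 6, which again can only add to such counts, gave 19 of the 85 lower (22.4%, against 7.28%) and 4 higher (4.71%, against 11%). Then 32 of the 46 had a negative difference (69.6%, against 38.5%), the median was -0.14 against 0.06 over all genes, and 1 was lower at an unadjusted p under 0.05 (2.17%, against 2.24%). With array weights 5 members were called, all lower (Cxcl14, Il10ra, Il15ra, Il17rc and Il18bp), which is 10.9% of the 46, against 13.6% of all genes tested.

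The third comparison, young serum against EV-depleted serum, addresses what removing the vesicles does. By limma 0 of the 46 passed, the smallest adjusted p being 1.0 (0.0% of all genes passed). At an unadjusted p under 0.05, 0 were higher (against 0.478%) and 0 lower (against 1.75%). Over the 85 genes, Ccl12 and Il2rb lay higher in every young serum library than in any EV-depleted library (2.35%, against 1.93%), at 5 to 13 against 3 to 5 reads for Ccl12 and 6 to 19 against 0 to 5 reads for Il2rb, and 0 lay lower (against 3.7%). Among the tested genes, 0 lay higher (against 1.96%) and 0 lower (against 4.16%). The median difference was 0.07, with 30 of 46 positive (against 48.7% of all genes tested). With a replicate block 24 of 46 were positive, and 47.8% were negative against 57.3% of all genes tested. The median was then 0.01, against -0.03 over all genes. Without EV-depleted 3 the median of the members was -0.03, and that over all genes is not given. Both comparisons with saline share the same 4 saline libraries, so their values are not independent.

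**Figure D3:**
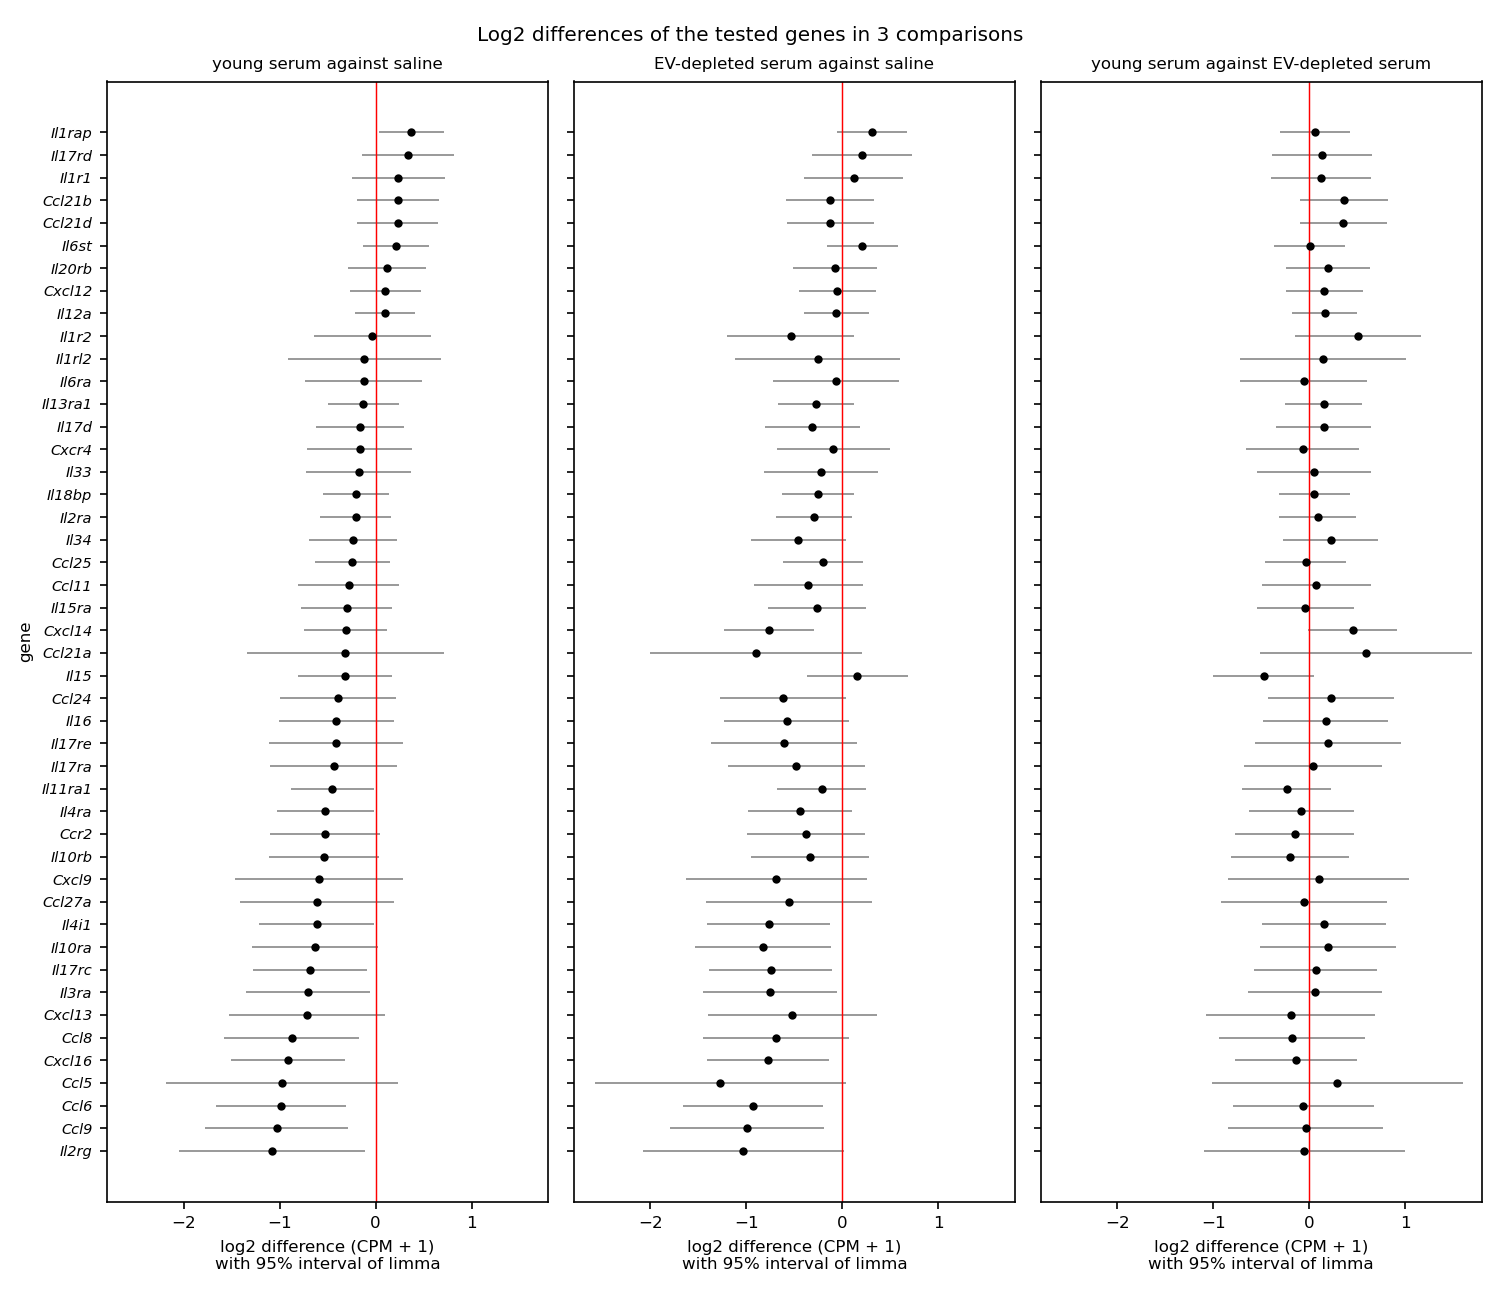
Log2 difference (CPM + 1) of each of the 46 tested genes, with the 95% interval of limma, in the 3 comparisons; genes are in the order of young serum against saline. In both comparisons with saline most points lie left of 0 (37 and 41 of 46), and between the 2 serum groups the intervals of all 46 include 0.

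Among the CC ligands, the neighbours Ccl6 and Ccl9, chemokines of myeloid cells that act on CCR1, showed some of the largest differences. Ccl6 stood at 6.60, 8.67, 14.4 and 8.58 CPM in saline 2, 3, 4 and 6, at 6.55, 4.72, 4.33 and 2.02 CPM in young serum 1 to 4, and at 5.05, 2.62 and 6.03 CPM in EV-depleted 2 to 4. Neither serum group overlapped saline, though young serum 1 came close to saline 2. The log2 difference was -0.99 ± 0.31 (SE) for young serum (limma adjusted p = 0.180) and -0.93 ± 0.33 for EV-depleted serum (adjusted p = 0.404), and -0.74 and -0.68 without saline 4 and 6.

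Ccl9 stood at 3.56, 4.96, 9.11 and 10.5 CPM in saline, at 4.70, 3.08, 2.76 and 1.07 CPM after young serum, and at 2.96, 2.10 and 3.34 CPM after EV-depleted serum. Saline 4 and 6 were the highest libraries, and young serum 1 lay within the saline range. The log2 difference was -1.03 ± 0.34 (SE; adjusted p = 0.180) for young serum and -0.99 ± 0.37 (adjusted p = 0.404) for EV-depleted serum, and -0.51 and -0.47 without saline 4 and 6. Between the serum groups, the difference was -0.06 for Ccl6 (95% interval -0.79 to 0.67) and -0.04 for Ccl9 (-0.84 to 0.77).

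The other set of neighbours holds Ccl2, Ccl7, Ccl8 and Ccl12, the monocyte chemoattractant genes. Ccl8 stood at 2.59, 2.91, 2.65 and 5.36 CPM in saline, at 2.52, 1.70, 1.75 and 0.102 CPM after young serum, and at 1.94, 1.48 and 1.48 CPM after EV-depleted serum. Saline 6 was the highest library and young serum 4 by far the lowest, and saline 2 and young serum 1 were close. For Ccl8 the log2 difference was -0.88 ± 0.32 (SE; adjusted p = 0.185) for young serum and -0.70 ± 0.35 (adjusted p = 0.424) for EV-depleted serum. The value for young serum was -0.52 without young serum 4 and -1.53 with a pseudocount of 0.1 in place of 1.

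Ccl2, a main CCR2 ligand, was below the filter at 17 to 30 reads per library in saline (0.432, 0.660, 0.710 and 0.553 CPM), 5 to 13 after young serum (0.331, 0.137, 0.339 and 0.153 CPM) and 12 to 17 after EV-depleted serum (0.413, 0.311 and 0.388 CPM). All young serum libraries lay below all saline libraries. An exact two-sided permutation test gave p = 0.0286, the smallest that 4 against 4 libraries allow, and 0.343 after adjustment over the 24 such tests made. For EV-depleted serum the exact permutation p was 0.0571, also the smallest possible with 4 and 3 libraries, and saline 2 and EV-depleted 2 held 17 reads each. Ccl7 ran alongside, at 14 to 20 reads in saline, 1 to 10 after young serum and 1 to 11 after EV-depleted serum.

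Macrophage markers are given beside these chemokines as summed levels, with no test. The 12 macrophage markers, all in the table, summed to 129, 166, 344 and 233 CPM in saline 2, 3, 4 and 6, to 161, 118, 113 and 56.3 CPM after young serum and to 108, 74.1 and 128 CPM after EV-depleted serum. Young serum overlapped saline in this sum, while all 3 EV-depleted sums lay below every saline sum, narrowly for EV-depleted 4 and saline 2. Of the 12 markers, 10 were highest in saline 4, Lyz2 in saline 6 and Mertk in EV-depleted 4. Mertk, a receptor for dying cells, stood at 1.74 to 3.41 CPM in saline, 2.27 to 3.51 CPM after young serum and 1.35 to 3.57 CPM after EV-depleted serum. Young serum 4, lowest for Ccl6, Ccl8 and Ccl9, was also lowest in the macrophage sum. The part of these markers in the differences of the chemokines was not tested.

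**Figure D4:**
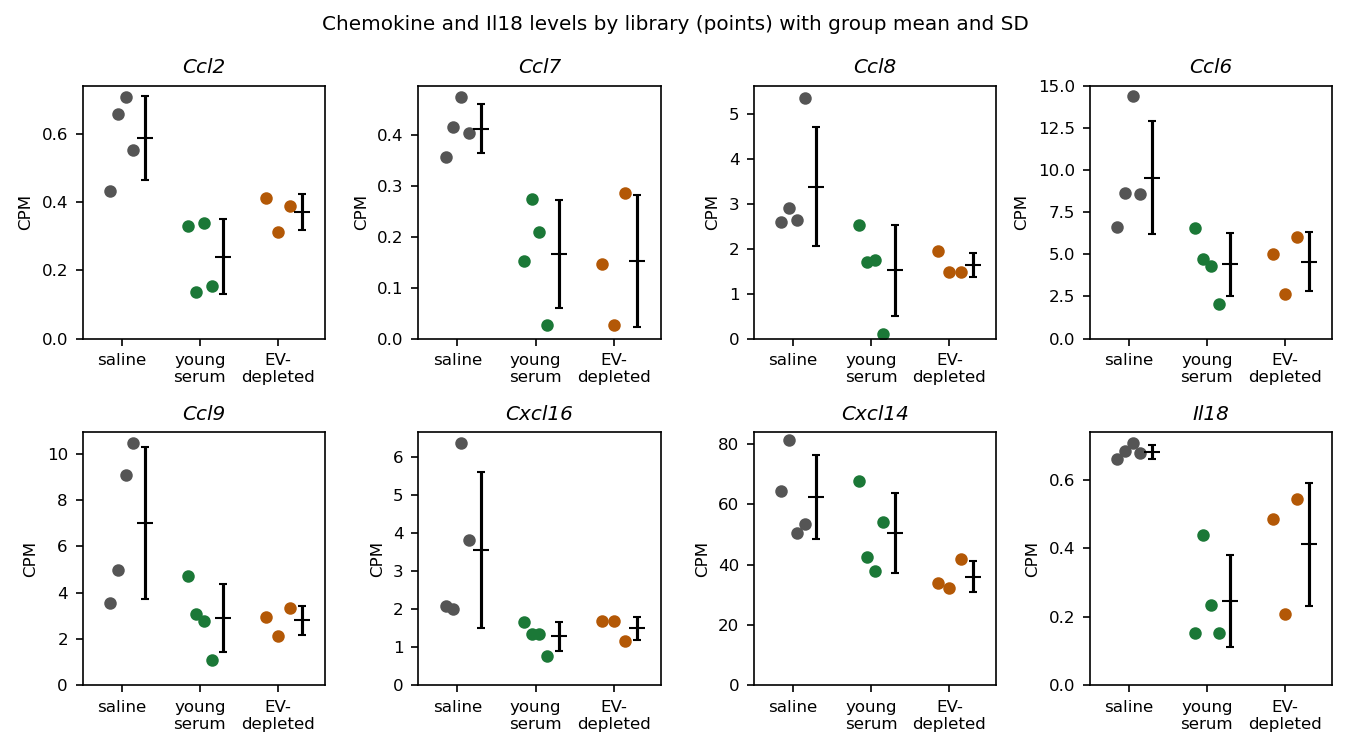
CPM of 7 chemokine genes and Il18 in each library (points), with the mean and SD of each group (bars); all axes start at 0. Ccl2, Ccl7, Ccl8, Ccl6, Cxcl16 and Il18 lie lower in all 4 young serum libraries than in the 4 saline libraries, while Ccl9 and Cxcl14 overlap.

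The other CC ligands overlapped between the groups. Ccl11 averaged 11.9 ± 1.64 CPM in saline (SD, n = 4), 9.64 ± 1.86 after young serum (n = 4) and 9.76 ± 5.29 after EV-depleted serum (n = 3), where EV-depleted 4 was the highest of all libraries at 15.9 CPM. Ccl5 averaged 3.26 ± 4.73, 0.525 ± 0.589 and 0.197 ± 0.211 CPM (SD), the saline mean resting on the 10.3 CPM of saline 4. Ccl21a averaged 12.6 ± 9.48, 8.35 ± 2.66 and 5.56 ± 3.34 CPM, with log2 differences of -0.31 ± 0.47 (SE) and -0.90 ± 0.50 from saline and 0.59 ± 0.50 between the serum groups (95% interval -0.51 to 1.69). Single libraries moved these values: without saline 4 the differences of Ccl21a from saline were 0.10 and -0.49, and that between the serum groups was 0.23 without EV-depleted 3 and 0.97 without EV-depleted 2.

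Among the CXC ligands, Cxcl16 had the smallest unadjusted p of the members for young serum, 0.0056. Cxcl16, made as a membrane-bound protein and the ligand of CXCR6, stood at 2.07, 1.99, 6.37 and 3.82 CPM in saline, at 1.65, 1.35, 1.36 and 0.765 CPM after young serum, and at 1.68, 1.67 and 1.15 CPM after EV-depleted serum. Neither serum group overlapped saline, and saline 4 was the highest library. The log2 difference was -0.91 ± 0.27 (SE; limma adjusted p = 0.180) for young serum and -0.77 ± 0.29 (adjusted p = 0.404) for EV-depleted serum, and without saline 4 and 6 these were -0.43 and -0.29. Its receptor Cxcr6 did not pass the filter. On the opposite strand, Zmynd15 shares bases with 18.3% of the exons of Cxcl16, and no source used here says whether the counting used strand.

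Cxcl14 was the highest chemokine per kilobase of joined annotated exon and the one with the smallest p after EV-depleted serum. Its values were 64.6, 81.4, 50.7 and 53.6 CPM in saline, 67.8, 42.6, 37.9 and 54.0 CPM after young serum, and 34.0, 32.1 and 42.0 CPM after EV-depleted serum. All 3 EV-depleted libraries lay below all saline libraries, while the young serum libraries spread across both ranges. The log2 difference from saline was -0.76 ± 0.21 (SE; unadjusted p = 0.00389, limma adjusted p = 0.355) for EV-depleted serum and -0.31 ± 0.20 (adjusted p = 0.346; -0.18 without saline 3) for young serum. Unlike the lymphoid genes, Cxcl14 was lowest in saline 4 among the saline libraries, and its difference for EV-depleted serum was -0.999 without saline 4 and 6 (adjusted p = 0.344). Young serum exceeded EV-depleted serum by 0.45 ± 0.21 (SE; 95% interval -0.01 to 0.92, unadjusted p = 0.056 and adjusted p = 1.0 by limma), the smallest p of any member in that comparison.

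Cxcl12, the CXCR4 ligand, averaged 74.3 ± 11 CPM in saline, 79.4 ± 7.85 after young serum and 72.8 ± 20.2 after EV-depleted serum (SD, n = 4, 4 and 3). The 3 groups overlapped, with a log2 difference of 0.10 for young serum (95% interval -0.27 to 0.47) and -0.05 for EV-depleted serum (-0.46 to 0.35). Cxcr4 averaged 3.21 ± 1.5, 2.59 ± 0.207 and 2.89 ± 1.22 CPM. Cxcl10 stood at 0.538 to 2.01 CPM in saline, 0.637 to 0.860 CPM after young serum and 0.362 to 0.923 CPM after EV-depleted serum, and the groups overlapped. Cxcl9 and Cxcl13 averaged 2.02 ± 2.52 and 2.04 ± 1.82 CPM in saline and 0.527 to 0.923 CPM in the serum groups, with the saline mean set mostly by saline 4.

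Of the chemokine receptors, only Ccr2 and Cxcr4 were tested. Ccr2, which marks inflammatory monocytes, stood at 2.67, 3.57, 3.62 and 1.89 CPM in saline, at 2.42, 1.75, 2.42 and 0.588 CPM after young serum, and at 1.82, 1.5 and 2.72 CPM after EV-depleted serum. Both serum groups overlapped saline, and saline 6 was the lowest saline library. Its log2 difference was -0.53 ± 0.26 (SE; limma adjusted p = 0.252) and -0.38 ± 0.28 (adjusted p = 0.530), and that for young serum was -0.28 without young serum 4.

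Among the IL-6 family genes with an interleukin name, the receptor chains Il6st and Il11ra1 were abundant. The ligands Il6 and Il11 were near the limit of detection, at 0 to 4 and 0 to 6 reads per library. Il6st averaged 123 ± 27.4 CPM in saline, 140.0 ± 12.1 after young serum and 140.3 ± 20.1 after EV-depleted serum (SD), and the log2 difference was 0.21 for both (95% intervals -0.14 to 0.56 and -0.17 to 0.58). Il6ra, the IL-6-binding chain, stood at 4.42 to 12.7 CPM in saline, 4.75 to 7.42 CPM after young serum and 4.47 to 6.85 CPM after EV-depleted serum. Il11ra1 stood at 48.1, 50.5, 74.1 and 91.5 CPM in saline, where saline 4 and 6 were highest, and at 37.4 to 59.7 CPM in the serum groups.

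Receptors of the common gamma chain group had lower estimates in all 5 tested genes in both comparisons with saline. Il2rg differed by -1.08 ± 0.44 (SE; limma adjusted p = 0.201) after young serum, by -0.56 without saline 4 and by -0.26 without saline 4 and 6. Gm20489 shares bases with 30.5% of the exons of Il2rg on the same strand. Il4ra, the IL-4 and IL-13 receptor chain, averaged 10.7 ± 4.49, 6.84 ± 1.40 and 7.28 ± 1.30 CPM in saline, young and EV-depleted serum (SD). Il15ra averaged 10.2 ± 3.06, 7.86 ± 0.325 and 8.38 ± 2.90 CPM, and Il13ra1 2.69 ± 0.284, 2.41 ± 0.600 and 2.08 ± 0.564 CPM. The groups of Il4ra, Il15ra and Il13ra1 overlapped.

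Il15, a cytokine abundant in muscle fibres that acts through Il15ra, was the only tested ligand of the gamma chain group. It stood at 4.14, 3.05, 4.07 and 5.91 CPM in saline, at 2.27, 4.67, 3.99 and 2.25 CPM after young serum, and at 5.25, 3.97 and 5.25 CPM after EV-depleted serum. Young serum 1 and 4 were the lowest libraries, and young serum 2 and 3 lay within the range of the others. Young serum differed from EV-depleted serum by -0.48 ± 0.24 (SE; 95% interval -1.005 to 0.0517, unadjusted p = 0.0728 and adjusted p = 1.0 by limma). Il7, a lymphocyte survival cytokine, amounted to 0 to 18 reads per library.

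Of the IL-17 family, 4 of the 5 tested genes had lower estimates than saline in both comparisons, and Il17rd, a receptor-like protein, had higher ones. The estimate of Il17d, an IL-17 ligand, for young serum was 0.00 without saline 6, and that of Il17rd for EV-depleted serum was -0.03 without EV-depleted 4. Il17rc, a chain of the IL-17A and IL-17F receptor, stood at 4.45, 6.40, 15 and 5.93 CPM in saline, at 4.41, 4.67, 3.67 and 3.70 CPM after young serum, and at 3.40, 3.94 and 4.30 CPM after EV-depleted serum. Saline 4 was far above every other library, and young serum 2 exceeded saline 2. The log2 difference was -0.68 ± 0.27 (SE; limma adjusted p = 0.196) for young serum and -0.75 ± 0.29 (adjusted p = 0.404) for EV-depleted serum, and without saline 4 these were -0.36 and -0.43. Its partner Il17ra averaged 3.26 ± 2.40, 1.89 ± 0.636 and 1.79 ± 0.435 CPM (SD), with 6.81 CPM in saline 4.

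The IL-1 family held the 1 gene that lay higher in every young serum library than in saline, named here after its values were seen. Il1rap, the accessory chain shared by the receptors of IL-1, IL-33 and IL-36, stood at 0.991, 0.929, 1.18 and 0.528 CPM in saline, at 1.76, 1.30, 1.49 and 1.28 CPM after young serum, and at 1.24, 1.14 and 1.68 CPM after EV-depleted serum. EV-depleted 3, at 1.14 CPM, fell below saline 4. On the log2 scale Il1rap differed by 0.37 ± 0.15 (SE; limma adjusted p = 0.205) for young serum and 0.31 ± 0.17 (adjusted p = 0.435) for EV-depleted serum. Il1r1, the signalling IL-1 receptor, averaged 6.93 ± 1.48, 8.58 ± 3.24 and 7.54 ± 1.22 CPM (SD), and young serum 1 was the highest library at 13.3 CPM. Il33, an alarmin released by damaged cells, averaged 3.0 ± 0.839, 2.53 ± 0.618 and 2.56 ± 1.5 CPM, and the groups overlapped.

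Il1r2, the decoy receptor of IL-1, stood at 0.255 to 1.96 CPM in saline, at 1.07, 1.70, 0.547 and 0.256 CPM after young serum and at 0.316, 0.208 and 0.311 CPM after EV-depleted serum. Young serum 4 overlapped the EV-depleted libraries, and the log2 difference between the serum groups was 0.51 ± 0.30 (SE; 95% interval -0.15 to 1.17), or 0.32 without young serum 2 and 1.16 with a pseudocount of 0.1. Il18, a cytokine matured by the inflammasome, was below the filter but showed tight saline values of 0.660, 0.684, 0.709 and 0.679 CPM (26 to 30 reads). After young serum it stood at 0.153, 0.439, 0.235 and 0.153 CPM (6 to 16 reads) and after EV-depleted serum at 0.486, 0.208 and 0.544 CPM (8 to 21 reads), both below every saline library. The exact permutation p was 0.0286 and 0.0571, each the smallest possible, and 0.343 for both after adjustment over the 24 tests.

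Of the 3 tested receptors of the IL-10 family, Il10ra and Il10rb were highest in saline 4, and Il20rb in young serum 1, at 3.49 CPM. Il10ra stood at 1.65, 2.05, 7.02 and 2.11 CPM in saline, at 1.78, 1.65, 1.43 and 0.945 CPM after young serum, and at 0.947, 1.12 and 1.32 CPM after EV-depleted serum. All EV-depleted libraries lay below saline, with a log2 difference of -0.83 ± 0.32 (SE; limma adjusted p = 0.404), or -0.47 without saline 4. Il10rb, the chain that Il10ra pairs with, averaged 8.04 ± 4.07, 4.86 ± 0.816 and 5.78 ± 1.33 CPM (SD). Il10 itself amounted to 13 reads in saline 4 and 0 to 2 reads in the other libraries.

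Il4i1 stood at 3.61, 3.72, 8.32 and 4.91 CPM in saline, at 3.31, 1.51, 3.43 and 3.54 CPM after young serum, and at 3.34, 1.61 and 2.62 CPM after EV-depleted serum. The log2 difference was -0.62 ± 0.27 (SE; limma adjusted p = 0.219; -0.39 without saline 4) for young serum and -0.77 ± 0.29 (adjusted p = 0.404) for EV-depleted serum. However, 86.3% of its exon bases are shared with other genes, so its value is uncertain. These genes are Nup62, a nuclear pore gene on the same strand, and Atf5 and Tbc1d17 on the opposite strand. Il34, a ligand of the macrophage receptor CSF1R, averaged 6.83 ± 2.57, 5.39 ± 0.481 and 4.49 ± 0.601 CPM (SD), and Il16, a lymphocyte attractant, 4.54 ± 2.17, 3.0 ± 0.548 and 2.69 ± 1.24 CPM.

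Gene copies on chromosome 4 limit 8 of the 85 genes. Il11ra1, Ccl27a, Ccl21d, Ccl21b, Ccl27b, Il11ra2, Ccl19 and Ccl21a lie between 41699989 and 42773993. For the 7 of them with a match in GENCODE M21, 57.0% or more of the 31-base words of their exons also occur in other genes. Ccl21b and Ccl21d kept a ratio of 1.06 in all 11 libraries, so their values were not measured separately. Ccl27a and Il11ra1 overlap on opposite strands, but only in 0.337% and 0.179% of their exon bases. Both were highest in saline 6, at 30.2 and 91.5 CPM.

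Partner genes outside the name rule were examined in 4 lists. Of 17 tested JAK, STAT and SOCS genes, 25 tested genes of IL-1 receptor and NF-kappaB signalling, 14 tested chemokine genes with other names and 16 tested haematopoietic cytokines and receptors, 0 passed limma's adjusted test in any comparison. At an unadjusted p under 0.05 for young serum against saline, where 10.5% of all genes tested were higher and 11.4% lower, 4 JAK, STAT and SOCS genes were higher (23.5%) and 1 lower (5.88%), with a list median of 0.06. In the same comparison the IL-1 and NF-kappaB list had 2 higher (8.0%) and 1 lower (4.0%), the chemokine genes with other names 0 higher and 2 lower (14.3%), and the haematopoietic list 0 higher and 2 lower (12.5%). For EV-depleted serum against saline, where 6.49% of all genes were higher and 5.59% lower, the JAK, STAT and SOCS list had 1 higher and 1 lower (5.88% each) and the IL-1 and NF-kappaB list again 2 higher and 1 lower. There, the chemokine genes with other names had 0 higher and 2 lower (14.3%), and the haematopoietic list 0 higher and 4 lower (25%). The medians of the chemokine genes with other names were -0.29 for young serum and -0.26 for EV-depleted serum.

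Pf4 (also called CXCL4), a platelet and macrophage chemokine that the name rule misses, stood at 6.00, 8.14, 14.8 and 12.6 CPM in saline, at 5.63, 3.49, 3.65 and 2.58 CPM after young serum, and at 3.52, 3.35 and 4.92 CPM after EV-depleted serum. Neither serum group overlapped saline. Pf4 differed on the log2 scale by -1.20 ± 0.27 (SE; unadjusted p = 0.000774, limma adjusted p = 0.180) and -1.15 ± 0.29 (adjusted p = 0.328). Ackr1, the atypical receptor of venules and red cells that binds many chemokines, stood at 3.23 to 5.31 CPM in saline, 1.56 to 3.83 CPM after young serum and 1.89 to 2.31 CPM after EV-depleted serum. On the signalling side, Ptpn11, the phosphatase SHP2, stood at 83.7 to 136 CPM in saline and at 137 to 179 CPM in the serum groups, with log2 differences of 0.49 ± 0.16 (SE; adjusted p = 0.180) and 0.53 ± 0.17 (adjusted p = 0.391). Csf1r, the receptor of IL-34, averaged 23.2 ± 7.47 CPM in saline, 15 ± 4.47 after young serum and 12.3 ± 2.48 after EV-depleted serum (SD), with adjusted p of 0.205 and 0.391 by limma.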

How the data were processed

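RNA of 11 muscle libraries was sequenced. FastQC, STAR, DESeq2 and mm10 appear in the submitters' processing notes, without versions or roles. The CPM table deposited by the authors holds 18269 genes, each library summing to 1e+06 with an offset of 0.0001, as read from the values. The TPM table deposited by the authors was used only for gene positions. Low CPM values moved in steps of 1 read, giving depths of 36.4 to 42.3 times 1e+06 reads. Of values from 0.01 to 1 CPM, 75.6% to 78.9% were whole within 0.1 reads, so no count model was fitted.

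Genes reaching 1 CPM in 3 or more libraries were tested (13187 kept, 5082 removed). limma 3.58.1 in R 4.3.3 was fitted to log2(CPM + 1), with a pseudocount of 1, which understates changes of low genes. All 3 groups shared 1 model, with eBayes and a variance trend. Two-sided p-values were adjusted over all genes tested (Benjamini-Hochberg, threshold 0.05). Fixed genes below the filter had an exact permutation test of CPM. The script was tested on simulated data.

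The chemokine, interleukin and receptor genes and the lists were chosen with earlier results of these data known, so no list has a p-value. Fold changes are given for the 6 members with the smallest p per comparison, and values for the 10 highest, those with a library over 5 times the median, and a named set of 34. A gene of that set is not reported here. From each partner list, the 2 genes with the smallest p per comparison were open to naming. Motifs and overlaps were read with Python 3.11.15. Alternatives were another pseudocount (0.1), no filter, median-ratio scaling, array weights, 2-group fits, a replicate block and leaving out libraries.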

Additional observations from a re-analysis of the deposited data

Results flagged for a closer look

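In groups of 4 libraries, a library was set apart when its gap to the nearest other exceeded 0.829 of the group's range (Dixon's 95% value). Chance marks about 1 in 20 groups of independent, normally distributed values, which CPM of related genes are not. Here 14 values were marked in 92 groups examined, 7 of them in saline 4. The share over all genes is not given, so this count is not read as particular to the members.

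In saline 4, Ccl5 stood at 10.3 CPM (against 0.406 to 1.89 CPM in saline 2, 3 and 6), Cxcl9 at 5.77 CPM (0.513 to 1.21), Il10ra at 7.02 CPM (1.65 to 2.11) and Il17re, the IL-17C receptor, at 6.44 CPM (1.68 to 1.91). Il3ra, the IL-3 receptor, stood there at 9.48 CPM (2.90 to 3.44), Il4ra at 17.4 CPM (7.81 to 9.19) and Il6ra at 12.7 CPM (4.42 to 4.90). In saline 6, Ccl27a stood at 30.2 CPM (5.91 to 8.79) and Ccl8 at 5.36 CPM (2.59 to 2.91). In saline 2, the near-identical Ccl21b and Ccl21d stood at 0.671 CPM (1.09 to 1.16) and 0.634 CPM (1.03 to 1.10), which count as 1 measurement.

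In the young serum group the marked values were low. Il17re stood at 0.714 CPM in young serum 2 (1.98 to 2.17 in the others), Il4i1 at 1.51 CPM in young serum 2 (3.31 to 3.54) and Il18bp at 1.05 CPM in young serum 4 (1.32 to 1.36).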

How the results depend on the processing

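The share over all genes is not given beside the member counts of this section. These counts show how far they move with the processing, and are not read as particular to the members. With a pseudocount of 0.1 no call, count or direction moved. With low genes kept, counts are over all 85 members in place of the 46 tested, so they can rise for that reason alone. For young serum against saline, 7 of the 85 then lay lower without overlap. With a replicate block 0 were higher at an unadjusted p under 0.05. With array weights 3441 genes and 7 members were called, and 4 members were higher at an unadjusted p under 0.05. With only the 2 groups fitted, 5 were lower at that p. Without saline 4 and 6, an alternative chosen after seeing the data, 0 were higher and 1 lower at that p, and 3 tested members lay higher without overlap.

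For EV-depleted serum against saline, keeping low genes gave 16 lower at an unadjusted p under 0.05 and 16 lower without overlap, again over the 85. Median-ratio scaling gave 14 lower at that p and 1 higher without overlap. The replicate block gave 6 genes called and 5 members lower at that p. Array weights gave 1794 genes and 5 members called and 3 higher at that p. Without saline 4 and 6, 2 genes were called, 1 member was lower at that p and 1 lay higher without overlap. For young against EV-depleted serum, 2 of the 85 lay higher without overlap with low genes kept, and 2 of the tested members with median-ratio scaling. Array weights gave 24 genes called, with 4 members higher and 1 lower at an unadjusted p under 0.05, and the 2-group fit gave 1 higher.

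Leaving out 1 library at a time called 0 members in every case. For young serum against saline, 0 to 251 genes were called (251 without saline 2, 1 without saline 6). Members lower at an unadjusted p under 0.05 numbered 5 to 16 (16 without saline 2; 6 without saline 4 or young serum 2; 5 without young serum 4), and 0 to 1 were higher. Tested members lower without overlap numbered 4 to 12 (12 without saline 2, 8 without young serum 1). For EV-depleted serum against saline, 0 to 5 genes were called. Members lower at that p numbered 2 to 15 (15 without saline 2, 2 without EV-depleted 3), 0 to 1 higher, with 10 to 17 lower without overlap (17 without saline 2) and 0 to 1 higher. For young against EV-depleted serum, 0 to 2 were higher and 0 to 1 lower at that p, with 0 to 5 higher and 0 to 2 lower without overlap (5 and 2 without EV-depleted 4).

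The cause of these shifts was not tested. Deviations of the 9 same-numbered pairs of libraries correlated at -0.28 to 0.30, and 4 were over 0.1. Differently numbered pairs spanned -0.50 to 0.54. With 3 or 4 libraries per group, these correlations cannot decide whether replicate numbers pair the libraries. Depth limits the 27 genes below 1 CPM in every library, where 1 read is worth up to 0.0275 CPM.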

Other observations

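Several members not described above, named here after their values were seen, were also highest in saline 4 and next highest in saline 6. Ccl22, a CCR4 ligand made by dendritic cells, stood at 4.72 CPM in saline 4 and 1.48 CPM in saline 6, and at 0.0244 to 0.440 CPM in the other 9 libraries. Cxcr3, the receptor of Cxcl9 and Cxcl10, stood at 1.58 and 0.578 CPM against 0.0512 to 0.417 CPM. Il7r, the IL-7 receptor of lymphocytes, stood at 1.40 and 0.402 CPM against 0.0260 to 0.235 CPM, and Il27ra at 2.96 and 0.804 CPM against 0.153 to 0.733 CPM.

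In other members saline 4 was not the highest library. Il12a, a subunit of IL-12 and IL-35, ranged from 1.81 to 2.95 CPM, with group means of 2.06 ± 0.331, 2.29 ± 0.457 and 1.92 ± 0.102 CPM in saline, young and EV-depleted serum (SD, n = 4, 4 and 3). Ccl25, a ligand of CCR9, ranged from 1.93 to 4.48 CPM, with saline 6 highest.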
